A study of Mus musculus with 15 samples.

Results

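The calcium/calmodulin-dependent protein kinase II (CaMKII) family was examined in mouse cortex 1 month after high-frequency head impact. Its members were chosen by name: every transcript in the deposited expression table that GENCODE M21 assigns to Camk2a, Camk2b, Camk2d or Camk2g, which gave 9 of the 10370 transcripts listed. The same annotation holds 67 transcripts of these genes. The 9 listed were 1 of 7 for Camk2a, 3 of 15 for Camk2b, 2 of 28 for Camk2d and 3 of 17 for Camk2g. The other annotated transcripts were not analysed here. Listing went with abundance: the lowest mean of any listed transcript was 108 normalized counts (counts divided by the library's size factor, which scales libraries to a common depth), and the lowest CaMKII mean, that of Camk2d-202, was 123. Which CaMKII transcripts were listed is thus a description and not a result.

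Male mice labelled C57BL/6 (C57Bl/6J in the study's methods), with a labelled age of 12 weeks, received daily sets of head impacts under isoflurane over several days (HF-HI). The Sham group was anesthetized and handled on the same schedule and left unimpacted. Whether the labelled age was that at impact or at collection was not given. Cortex was dissected and its total RNA was sequenced after depletion of ribosomal RNA, giving 7 Sham and 8 HF-HI libraries at 1 month (the label 1m). The comparison asked which CaMKII transcripts, gene totals and isoform balances differed between the groups. The labels number the samples but do not name animals, so the p-values measure the spread between these samples. Whole counts recovered from the deposited values summed to between 5798810 and 10582858 per Sham library and between 3496103 and 8666307 per HF-HI library, so the HF-HI libraries were shallower, with overlap. The tissue check used marker lists for cortical cell types: the 6 excitatory neuron markers were all listed, and their summed level was 9289 to 10553 normalized counts in Sham and 9518 to 10807 in HF-HI. In homogenized tissue, fewer cells of a type and less RNA per cell cannot be told apart.

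CaMKII is a serine/threonine kinase built from many subunits, encoded by 4 genes, that assemble into one large holoenzyme. Calcium-loaded calmodulin opens each subunit, and neighbouring subunits then phosphorylate one another on a conserved threonine, which keeps the kinase active after calcium has dropped. In forebrain neurons the Camk2a and Camk2b products are the main subunits, are concentrated at excitatory synapses and are required for normal long-term potentiation. The subunits share a kinase domain, a regulatory segment and an association domain, and alternative exons vary the linker between them.

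The sequences below show what the family shares and what separates its listed transcripts; all were read from GENCODE M21 transcripts on GRCm38 (mm10), 5′ to 3′ on the gene's strand. The first set is the 30 bases around the threonine of the regulatory segment, with its codon in capitals. That codon is number 287 in the listed coding transcripts of Camk2b, Camk2d and Camk2g and number 286 in Camk2a-203. It lies at chr11:5988997-5988999 (minus strand), chr3:126797741-126797743 (plus strand) and chr14:20760439-20760441 (minus strand) respectively.
Camk2b: atgcacagacaggagACTgtggaatgtctg
Camk2d: atgcacaggcaggagACTgtagactgcttg
Camk2g: atgcatcgccaagagACGgtagagtgctta
The 30 bases of Camk2b matched those of Camk2d at 25 positions and those of Camk2g at 20, and Camk2d matched Camk2g at 23. None of the 100-base windows of any listed CaMKII transcript occurred in a transcript of another CaMKII gene; matches to genes outside the family were not searched.

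The second set separates transcripts of the same gene. Camk2d-206 holds a 60-base coding exon (chr3:126805857-126805916, plus strand) that Camk2d-202 lacks. Camk2g-201 and Camk2g-202 hold a 69-base coding exon (chr14:20745792-20745860, minus strand) that Camk2g-203 lacks, and Camk2g-201 alone holds a 33-base coding exon (chr14:20747819-20747851, minus strand). Each begins on a codon boundary and adds whole codons, 20, 23 and 11 of them. Exons of this kind lengthen the linker, and inserts there are known to affect where the holoenzyme goes in the cell.
Camk2d 60-base exon: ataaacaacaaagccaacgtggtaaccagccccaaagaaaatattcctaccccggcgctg
Camk2g 69-base exon: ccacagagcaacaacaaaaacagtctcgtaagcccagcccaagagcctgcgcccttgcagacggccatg
Camk2g 33-base exon: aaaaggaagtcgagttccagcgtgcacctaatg

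The Camk2b transcripts differ in another way. Camk2b-209 and Camk2b-210 have the same coding sequence on the same 20 coding exons, 542 codons long. Camk2b-209 has 185 further bases at its first exon and 28 at the end of its last exon, and it keeps a 30-base stretch after the coding sequence (chr11:5970132-5970161, minus strand) that Camk2b-210 is annotated to splice out. That stretch is shown with its first and last 2 bases, GA and AG, in capitals. Whether it was spliced out in these libraries was not tested.
Camk2b 30-base stretch: GAtaccacctttcatccacactgtgcccAG
Only 244 of 3924 windows of 100 bases in Camk2b-209 and 96 of 3681 in Camk2b-210 occurred in no other listed Camk2b transcript. All 96 span the annotated splice, so Camk2b-210 was told from Camk2b-209 by that junction alone. Camk2b-212 is annotated as a processed transcript with no coding sequence, and 3785 of its 4026 windows were its own. For Camk2d the own windows numbered 205 of 4081 in Camk2d-206 and 100 of 3976 in Camk2d-202, and for Camk2g they numbered 168 of 3604, 98 of 3505 and 98 of 3465 in Camk2g-201, Camk2g-202 and Camk2g-203. Against every annotated transcript of the gene, listed or not, fewer windows were their own: 24 in Camk2b-209, 96 in Camk2b-210, 9 in Camk2d-206, 95 in Camk2d-202, and 34, 0 and 56 in Camk2g-201, Camk2g-202 and Camk2g-203. Of the 4871 windows of Camk2a-203, 1816 were its own. A count of one isoform was therefore an estimate that rested on few of its bases, and a total over the listed transcripts still depended on what the estimator gave to unlisted ones.

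The 4 genes stood in the same order in 15 of 15 libraries by the length-divided normalized counts of their listed transcripts. Unlisted transcripts are not in these sums. Camk2a was highest, with 1652 ± 115 normalized counts per kilobase (SD, 15 libraries), followed by Camk2b at 1057 ± 54.8, Camk2g at 560 ± 26.4 and Camk2d at 133 ± 22.2. Per kilobase, Camk2a exceeded Camk2b 1.57 ± 0.150-fold, Camk2g 2.95 ± 0.216-fold and Camk2d 12.7 ± 2.31-fold (mean ± SD over libraries). Camk2a-203 ranked 173 by mean counts per kilobase among the annotated listed transcripts, Camk2b-209 ranked 520 and Camk2b-210 ranked 1501. The ranges of neighbours did not overlap: the lowest Camk2a value, 1474, stood above the highest Camk2b value, 1193, the lowest Camk2b value, 968, above the highest for Camk2g, 606, and the lowest for Camk2g, 507, above the highest for Camk2d, 187.

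**Figure D1:**
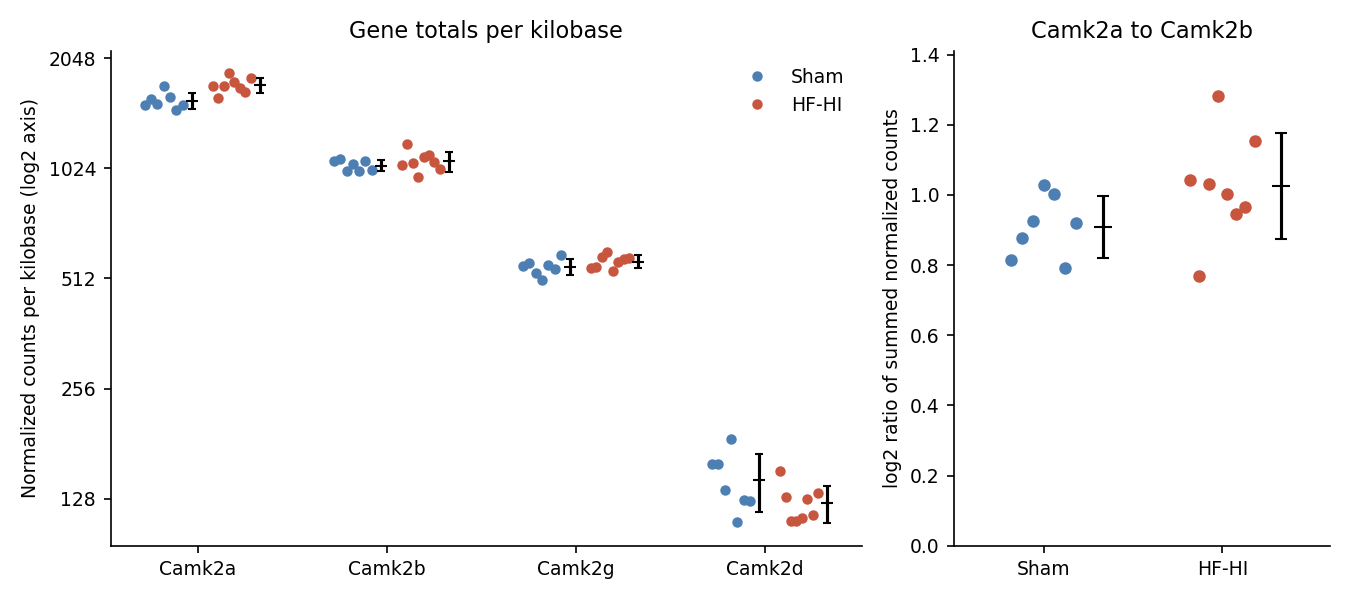
Left, summed normalized counts per kilobase of the 4 CaMKII genes (log2 axis) in each Sham (blue) and HF-HI (red) library; right, the log2 ratio of Camk2a to Camk2b summed normalized counts, with black marks giving the group mean and SD. Camk2a sits highest at 1474 to 1862 per kilobase, and the HF-HI ratios spread from 0.77 to 1.28 around the Sham range of 0.79 to 1.03.

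Camk2a encodes the alpha subunit, the defining CaMKII of forebrain excitatory neurons, and was represented by one transcript, Camk2a-203 (ENSMUST00000102888, within the gene at chr18:60925618-60988152, plus strand). Its lowest, median and highest values were 7328, 7606 and 8523 normalized counts in Sham and 7933, 8557 and 9256 in HF-HI. Each of the 8 HF-HI values exceeded the Sham median, 5 exceeded every Sham value, and the ranges overlapped. The group means were 7779 ± 392 (SD, n = 7) and 8585 ± 417 (SD, n = 8), a log2 ratio of 0.14. On the deposited variance-stabilized (VSD) scale the difference was 0.12 ± 0.031 (SE), with an exact two-sided permutation p of 0.00326 for this transcript taken alone and a limma adjusted p = 0.311 over the whole table. By limma's unadjusted p it ranked 53 among the 10370 transcripts, of which 916 had an unadjusted p under 0.05 and 0 an adjusted p under 0.1.

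The VSD scale compresses low counts, so sizes on it need a key: a doubling from 1000 to 2000 normalized counts adds 0.53, a doubling from 10000 to 20000 adds 0.89, and a doubling from 100 to 200 adds 0.20. Among all listed transcripts, 8.83% had an unadjusted limma p under 0.05, 4.94% higher and 3.9% lower in HF-HI. Of the 9 CaMKII transcripts 4 did, 2 higher (Camk2a-203 and Camk2b-210) and 2 lower (Camk2b-209 and Camk2d-202). Camk2b-209 and Camk2b-210 share most of their sequence, so their calls were not independent. None of the 9 passed the adjusted threshold. The median difference over the 10370 transcripts was -0.0013 VSD.

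Camk2b encodes the beta subunit, which binds filamentous actin in dendritic spines. The gene spans chr11:5969644-6066362 on the minus strand. Camk2b-209 (ENSMUST00000109813) was its most abundant transcript, with lowest, median and highest values of 2796, 2935 and 3985 normalized counts in Sham and 2125, 2762 and 3026 in HF-HI. Of the 8 HF-HI libraries, 5 were lower than every Sham library, and the ranges overlapped. The means were 3131 ± 413 (SD, n = 7) and 2655 ± 345 (SD, n = 8). The VSD difference was -0.16 ± 0.060 (SE), exact permutation p = 0.0218, limma adjusted p = 0.476.

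Camk2b-210 (ENSMUST00000109815), annotated as a shorter messenger with the same coding sequence, differed the other way. Its lowest, median and highest values were 165, 876 and 1217 normalized counts in Sham and 956, 1211 and 2328 in HF-HI. All 8 HF-HI libraries exceeded the Sham median and 4 exceeded every Sham library, again with overlap. The lowest value belonged to Sham replicate 1 and the highest to HF-HI replicate 2. The means were 836 ± 373 (SD, n = 7) and 1379 ± 436 (SD, n = 8), and the VSD difference was 0.37 ± 0.14 (SE), exact permutation p = 0.0109, limma adjusted p = 0.450. With the log2 size factor, a measure of library depth, as a covariate the VSD differences were -0.07 for Camk2b-209 and 0.26 for Camk2b-210, and neither kept an unadjusted limma p under 0.05. The noncoding Camk2b-212 (ENSMUST00000129098) took values of 151 to 205 across Sham libraries and 160 to 203 across HF-HI libraries (exact permutation p = 0.148).

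**Figure D2:**
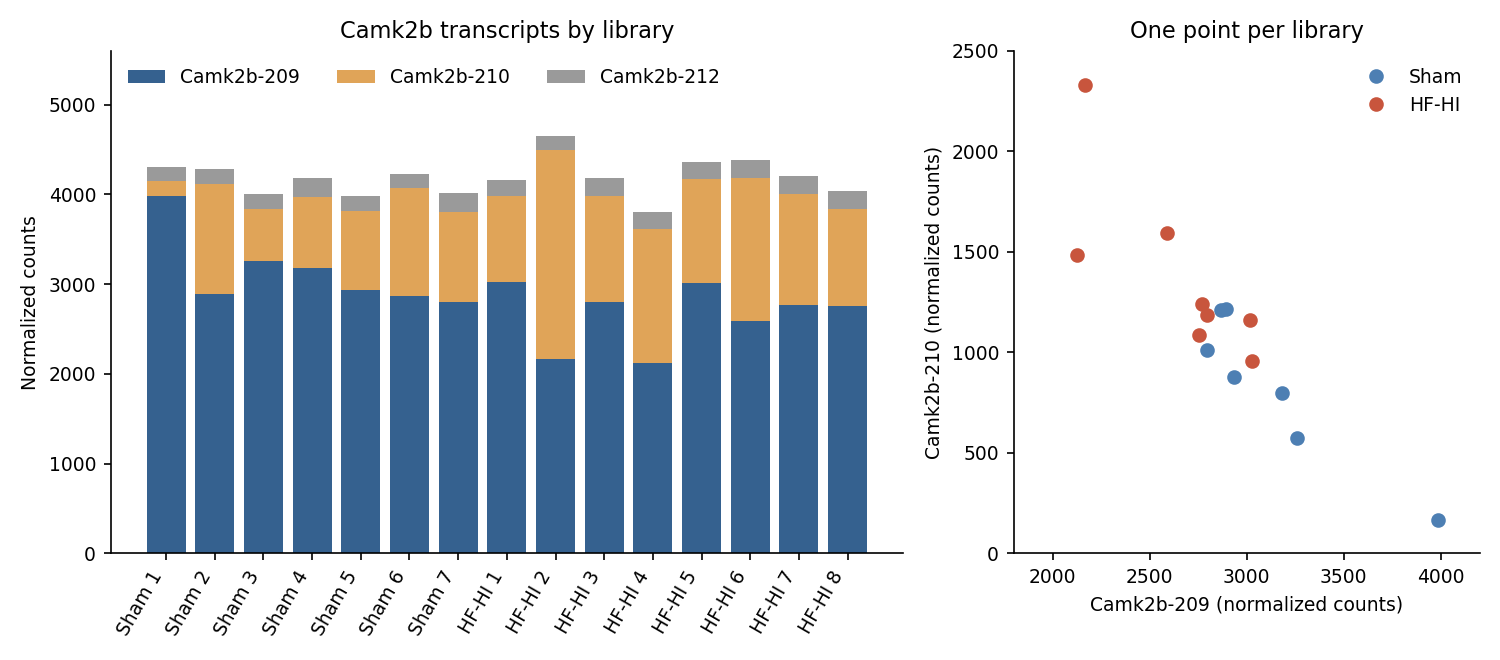
Left, stacked normalized counts of the 3 listed Camk2b transcripts in each library; right, Camk2b-210 against Camk2b-209 with one point per library (axes do not start at 0 for Camk2b-209). The bar heights stay between 3804 and 4654 while the division between the blue and orange parts varies, and the points fall along a descending line with Sham replicate 1 at the lower right and HF-HI replicate 2 at the upper left.

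The sum of Camk2b-209 and Camk2b-210 varied far less than either. It was 3966 ± 150 normalized counts (SD, n = 7) in Sham and 4034 ± 261 (SD, n = 8) in HF-HI, whereas Camk2b-210 alone had a coefficient of variation of 44.7% in Sham and 31.6% in HF-HI. Camk2b-210 made up 3.83 to 28.6% of Camk2b counts in Sham (median 22.0%) and 23.0 to 50.0% in HF-HI (median 28.9%). Camk2b-209 made up 67.6 to 92.6% (median 73.6%) and 46.5 to 72.7% (median 66.4%). For Camk2b-210 every HF-HI library was above the Sham median share, and for Camk2b-209 every one was below it.

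In the usage test the Camk2b transcripts had an adjusted p under 0.1, which neither transcript had when tested by itself. The usage test asked, over 4140 transcripts of 1639 genes with several listed transcripts, whether a transcript's change differed from that of the rest of its gene. Camk2b-210 rose by 1.04 on the log2 scale relative to the other Camk2b transcripts (limma diffSplice, adjusted p = 0.0519) and Camk2b-209 fell by 0.93 (adjusted p = 0.0709). The gene-level adjusted p for Camk2b was 0.0546. Of all transcripts tested, 2.27% had an adjusted p under 0.1 and 14.3% an unadjusted p under 0.05, against 2 of the 8 CaMKII transcripts tested on both counts. The 2 were Camk2b-209 and Camk2b-210, which divide shared counts between them, so they were not separate calls. The usage test treats transcripts of a gene as independent. These 2 were inversely related (Pearson r = -0.88 with group means removed), so their usage p-values may be too small. The log2 size factor moved with group (mean 0.30 in Sham and -0.25 in HF-HI): with it as a covariate the adjusted p of Camk2b-210 usage was 0.447 and its size 0.70, and in the 3 Sham and 5 HF-HI libraries of similar depth (size factors from 0.813 to 1.22) the values were 0.395 and 0.40. Without HF-HI replicate 2 the adjusted p was 0.119 and without HF-HI replicate 4 it was 0.108. Without Sham replicate 1, the library lowest in Camk2b-210, the sizes were 0.60 for Camk2b-210 and -0.55 for Camk2b-209, and both kept an adjusted p under 0.1. Whether depth had a part in the shift was not tested beyond these fits.

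The division between the 2 coding Camk2b transcripts also varied within groups. With group means removed, Camk2b-209 and Camk2b-210 were inversely related over the 15 libraries (Pearson r = -0.88, permutation p = 3e-05, adjusted p = 0.00048; Spearman rho = -0.87, permutation p = 7e-05, adjusted p = 0.00112). Without the 2 libraries farthest from the median of Camk2b-209, r was -0.92. The within-group coefficients were -0.97 in Sham and -0.82 in HF-HI. These transcripts share almost all of their sequence, and counts were divided between them by an estimator, so a count given to one was withheld from the other. Camk2b-212 was related to neither (r = -0.12 and 0.065, permutation p = 0.662 and 0.819). The VSD of Camk2b-209 had r = 0.52 with the log2 size factor (permutation p = 0.0459, adjusted p = 0.145; Spearman rho = 0.51, permutation p = 0.0519) and that of Camk2b-210 had r = -0.31 (permutation p = 0.268; rho = -0.40, permutation p = 0.137).

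Camk2g encodes the gamma subunit, which is expressed in many tissues and can carry calmodulin to the nucleus. The gene lies at chr14:20734875-20794088 on the minus strand. Camk2g-201 had a Sham range of 556 to 1002 normalized counts (median 740) and an HF-HI range of 564 to 1196 (median 878). For Camk2g-202 the Sham range was 457 to 966 (median 697) and the HF-HI range 424 to 1303 (median 642). For Camk2g-203 they were 340 to 787 (median 575) and 191 to 718 (median 557). The groups overlapped throughout for all 3, and the exact permutation p-values were 0.373, 0.873 and 0.719, with 95% intervals (limma) of the VSD difference of -0.09 to 0.23, -0.20 to 0.17 and -0.21 to 0.14.

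HF-HI replicate 6 divided its Camk2g counts differently from the other libraries. It had the highest Camk2g-202 value, 1303, and the lowest Camk2g-203 value, 191, and Camk2g-202 made up 63.3% of its Camk2g counts against a highest share of 47.7% in Sham. Over the 15 libraries, with group means removed, Camk2g-201, which holds the 33-base exon, and Camk2g-202, which lacks it, were inversely related (Pearson r = -0.73, permutation p = 0.00087, adjusted p = 0.00696; Spearman rho = -0.72, permutation p = 0.00311, adjusted p = 0.0249). Without the 2 libraries farthest from the median of Camk2g-201 r was -0.64, and without HF-HI replicate 6 it was -0.65 with an adjusted p of 0.0654 (permutation). Camk2g-203, which also lacks that exon, had r = -0.12 with Camk2g-201 (permutation p = 0.668), and -0.58 without the 2 libraries farthest in Camk2g-201. Camk2g-202 and Camk2g-203 had r = -0.45 (permutation p = 0.0924), which turned to 0.38 without the 2 libraries farthest in Camk2g-202, among them HF-HI replicate 6. Counts were divided among these transcripts by the estimator, and Camk2g-202 had 0 windows of its own among the annotated Camk2g transcripts. None of the 3 Camk2g transcripts differed in usage between groups (diffSplice adjusted p from 0.683 to 0.878).

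Camk2d encodes the delta subunit, the main CaMKII of heart muscle. Its listed transcripts, 2 of 28 annotated, had the lowest sum of the family in cortex. The gene lies at chr3:126596302-126846326 on the plus strand. Camk2d-206, with the 60-base exon, had a Sham range of 325 to 572 normalized counts (median 439) and an HF-HI range of 329 to 510 (median 423), and the groups overlapped (exact permutation p = 0.620). Camk2d-202, without the exon, had lowest, median and highest values of 90.3, 157 and 203 in Sham and 0, 89.8 and 200 in HF-HI. Of the 8 HF-HI values, 6 were under the Sham median and 4 under every Sham value. The VSD difference was -0.16 ± 0.076 (SE), exact permutation p = 0.0485, limma adjusted p = 0.562, and its unadjusted limma call was lost in 22 of 29 alternative settings.

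The 0 came from HF-HI replicate 4, which had 233 recovered counts for Camk2d in all, every one given to Camk2d-206. A count of 0 allows up to 3 counts, 5.99 normalized counts or 1.29% of the Camk2d counts of that library (counting error only), and the next lowest Camk2d-202 value was 43.8 normalized counts. The share of Camk2d-202 in Camk2d counts was 17.1 to 29.8% in Sham (median 27.8%) and 0 to 37.8% in HF-HI (median 18.9%). The usage difference was -0.97 on the log2 scale with an adjusted p of 0.371 (limma diffSplice). Camk2d-206 and Camk2d-202 were not detectably related over libraries (r = -0.21, permutation p = 0.480; rho = -0.05, permutation p = 0.852).

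**Figure D3:**
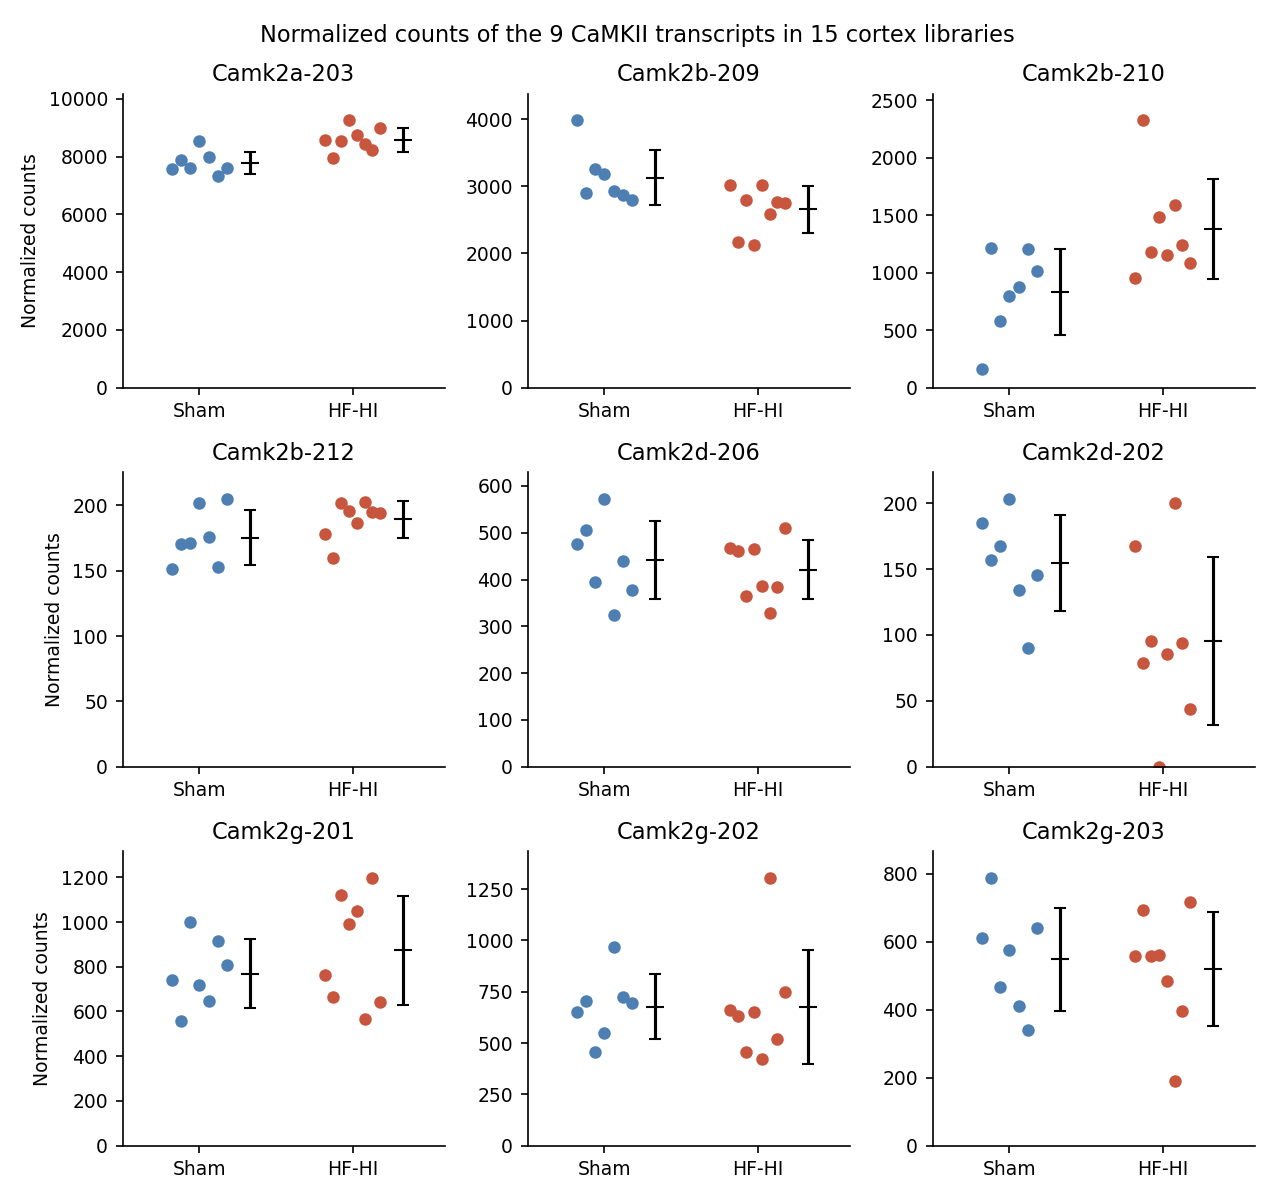
Normalized counts of each CaMKII transcript, one point per library, in 7 Sham (blue) and 8 HF-HI (red) libraries, with group mean and SD in black and each vertical axis starting at 0. All 8 HF-HI points for Camk2a-203 and for Camk2b-210 lie above the Sham medians of 7606 and 876, and the groups overlap in every panel.

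Gene totals summed the listed transcripts, so the division among those transcripts cancelled, while any division with unlisted transcripts remained. For Camk2a the total was Camk2a-203 alone. It was 0.14 ± 0.034 (SE) higher in HF-HI on the log2 scale (exact permutation p = 0.00326; limma voom adjusted p = 0.200). Over the 26 alternative settings of this result the difference stayed between 0.13 and 0.17 with an unadjusted limma p under 0.05 in each, including 0.16 with the size factor as a covariate and 0.17 in the libraries of similar depth. The adjusted p was under 0.1 in 1 of them, 0.0751 without Sham replicate 4, the highest Sham library. The Camk2b total, 4142 ± 138 in Sham and 4223 ± 253 in HF-HI, differed by 0.03 (95% interval -0.05 to 0.10; exact permutation p = 0.492). The Camk2g total, 1995 ± 96.8 and 2069 ± 86.1, differed by 0.05 (-0.02 to 0.12; exact permutation p = 0.139). The Camk2d total, 596 ± 108 and 517 ± 59.8, differed by -0.19 (-0.41 to 0.03; exact permutation p = 0.102), and 7 of 8 HF-HI values were under its Sham median. Of all 7740 gene totals 9.43% had an unadjusted p under 0.05, against 1 of the 4 CaMKII genes.

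**Figure D4:**
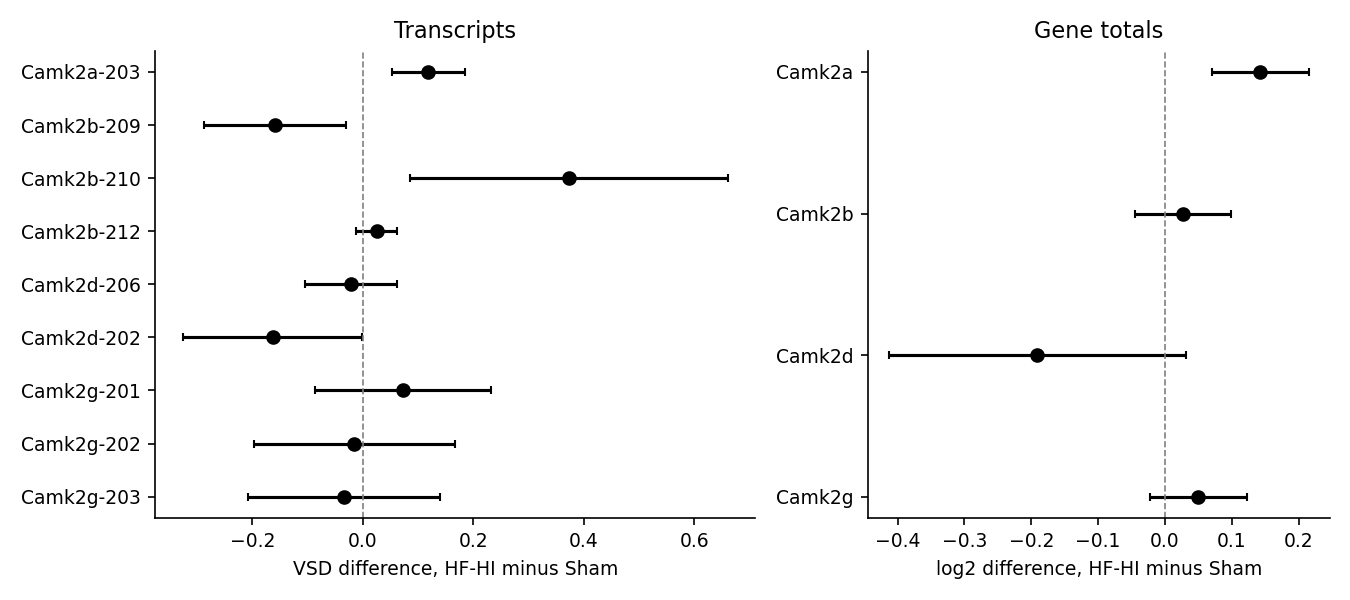
Differences between HF-HI and Sham with 95% intervals from limma for the 9 CaMKII transcripts on the VSD scale (left) and for the 4 gene totals on the log2 scale (right); the dashed line is 0. The Camk2a and Camk2b-210 intervals lie above 0, that of Camk2b-209 lies below it, that of Camk2d-202 ends at -0.00094, and the Camk2b total spans 0.

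The balance of the main brain subunits was measured as the log2 ratio of Camk2a to Camk2b summed counts. It was 0.91 ± 0.089 (SD, n = 7) in Sham and 1.02 ± 0.15 (SD, n = 8) in HF-HI, 0.12 apart (permutation test over every split of the libraries, exact and two-sided, p = 0.0988). Of the 8 HF-HI libraries, 7 exceeded the Sham median of 0.92 and 4 exceeded every Sham library, while HF-HI replicate 2, at 0.77, lay below every Sham library. Without that library the difference was 0.15 and the exact permutation p was 0.0134, the lowest p from leaving out 1 library. Over all such omissions the difference ran from 0.079 to 0.15 and the exact permutation p from 0.0134 to 0.184. In length-corrected shares of the family total, Camk2a took 47.4 ± 1.45% in Sham and 49.5 ± 1.93% in HF-HI, Camk2b 31.6 ± 1.04% and 30.7 ± 2.11%, Camk2g 16.7 ± 1.04% and 16.3 ± 0.646%, and Camk2d 4.34 ± 0.680% and 3.56 ± 0.420%. For Camk2d, 3 HF-HI shares lay below every Sham share and 7 lay below the Sham median; the shares were given no test.

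None of the 6 relations between gene totals of the family passed an adjusted permutation p of 0.05 over the 15 libraries. With group means removed, Camk2a and Camk2b had r = -0.57 (permutation p = 0.0254, adjusted p = 0.135; Spearman rho = -0.50, permutation p = 0.0596) and r = -0.57 without the 2 libraries farthest in Camk2a. The coefficient was -0.07 within Sham and -0.85 within HF-HI. Camk2g had r = -0.50 with Camk2b (permutation p = 0.0544) and -0.52 with Camk2d (permutation p = 0.0485), each with an adjusted p of 0.145. The other 3 pairs of totals had coefficients between -0.01 and 0.32. In all, 16 relations were computed, and 2 of them passed an adjusted p of 0.05, those of Camk2b-209 with Camk2b-210 and of Camk2g-201 with Camk2g-202. Both are pairs of transcripts of the same gene, among which the estimator divided counts. The permutation p does not allow for that division.

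The genes whose totals were most like those of the CaMKII genes were found by Pearson r over 15 libraries with group means removed, among 3284 genes with a mean total of at least 500 normalized counts; these values are a description. For Camk2a they included Grin1, the obligatory NMDA receptor subunit, with r = 0.83, and the splicing factor gene Srrm2 with 0.83. For Camk2b they were Uchl1, a neuronal deubiquitinase, with 0.83, and Eef1b2 and Cadm4 with 0.81 each. For Camk2d they were Atp2b4, a plasma membrane calcium pump, with 0.84, Chd3 with 0.82 and C2cd2l with 0.81. For Camk2g they were Rora, an orphan nuclear receptor, with 0.85, Ppm1l with 0.78 and Scn1a, a voltage-gated sodium channel, with 0.78. The totals come from the same libraries and share their depth, and the median r over all compared genes lay between -0.06 and 0.04 for each of the 4.

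Other genes of the pathway were read from lists, with calls at an unadjusted limma p under 0.05 set against the 8.83% of all transcripts; no transcript of these lists passed the adjusted threshold. Neither of the endogenous CaMKII inhibitor transcripts was called: Camk2n1 was at 9277 ± 650 and 9235 ± 794 normalized counts (limma adjusted p = 0.981) and Camk2n2 at 324 ± 39.0 and 342 ± 66.0 (limma adjusted p = 0.904).

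None of 17 transcripts of the other calmodulin-regulated kinases was called, and those with the smallest p-values were transcripts of Cask (limma adjusted p = 0.656) and Camkk1 (limma adjusted p = 0.661). Of 23 transcripts of phosphatases that act on CaMKII and of their regulators, 5 were called, 2 higher and 3 lower. The smallest p-values were those of 1 of 3 listed transcripts of Ppp1r1b, encoding the protein phosphatase 1 inhibitor DARPP-32 (ENSMUST00000078694; 584 ± 162 in Sham and 394 ± 146 in HF-HI, limma adjusted p = 0.504), and of Ppp2ca, a catalytic subunit of protein phosphatase 2A, at 2894 ± 89.8 and 2756 ± 101 (limma adjusted p = 0.506). Of 25 transcripts of postsynaptic anchors and binding partners 3 were called, 1 higher and 2 lower, led by a noncoding Grin1 transcript (ENSMUST00000155627; 200 ± 29.6 and 249 ± 44.4, limma adjusted p = 0.483) and by Gda, encoding cypin (2299 ± 131 and 2082 ± 201, limma adjusted p = 0.504). Of 56 substrate transcripts 7 were called, 3 higher and 4 lower, led by 1 of 2 listed transcripts of the calcium release channel gene Ryr2 (ENSMUST00000021750; 2636 ± 98.1 and 3231 ± 590, limma adjusted p = 0.405) and by a transcript of the transcription factor gene Creb1 (ENSMUST00000087366; 448 ± 87.4 and 287 ± 129, limma adjusted p = 0.514). The other listed transcripts of these genes were not called in the same direction. Ppp1r1b had 269 ± 167 and 349 ± 170 normalized counts (ENSMUST00000137634) and 215 ± 153 and 197 ± 106 (ENSMUST00000132443), neither called. Ryr2 had 2168 ± 96.0 and 1813 ± 518 (ENSMUST00000170156), not called. Creb1 had 261 ± 93.0 and 395 ± 156 (ENSMUST00000049932), called higher. No coding Grin1 transcript was called, and their differences went both ways. The median VSD difference of each of these 5 lists lay between -0.0081 and 0.013.

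Cell type markers were read beside the Camk2a result, with calls at an unadjusted limma p under 0.05 set against the 8.83% of all transcripts. Of the excitatory neuron markers 1 of 7 transcripts was called, Neurod2, at 301 ± 25.6 in Sham and 347 ± 44.1 in HF-HI (limma adjusted p = 0.514). Of the striatal markers 2 of 12 were called, both lower in HF-HI, 1 of 4 listed Pde10a transcripts (ENSMUST00000089085; 2560 ± 358 and 1821 ± 420, limma adjusted p = 0.311) and Penk (877 ± 160 and 712 ± 133, limma adjusted p = 0.533). The summed striatal list spanned 6359 to 9606 normalized counts over the Sham libraries and 4487 to 9040 over the HF-HI libraries, with Drd2 not among the listed genes. With the striatal level of the same libraries (mean scaled VSD of the 12 transcripts) as a covariate, the Camk2a total difference was 0.13 (limma adjusted p = 0.232, unadjusted p under 0.05). Whether tissue content had a part in the Camk2a difference was not tested beyond this fit. The astrocyte list had 1 of 10 called, 1 of 2 Aldoc transcripts, lower in HF-HI (ENSMUST00000017534; 1050 ± 70.9 and 841 ± 138, limma adjusted p = 0.338), and the microglial list 1 of 5, P2ry12, lower (234 ± 22.6 and 200 ± 31.8, limma adjusted p = 0.525). No transcript was called among 7 of interneurons, 16 of oligodendrocytes, 5 of endothelium and 5 of choroid plexus. The choroid plexus sum spanned 1972 to 11212 normalized counts over the Sham libraries and 2018 to 13832 over the HF-HI libraries. The median VSD difference was -0.064 for the striatal list, and for the other cell type lists it lay between -0.037 (astrocyte) and 0.020 (excitatory neuron).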

How the data were processed

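Cortex total RNA was made into stranded libraries, aligned by the authors with STAR to mm10, counted per transcript with eXpress and normalized with DESeq2 size factors; the STAR and eXpress versions and the annotation release were not given in the sources used here. The deposited values are variance-stabilized (VSD), log2-like values of 10370 transcripts in 15 libraries. The transformation was inverted to normalized counts and whole counts, with 100% of values within 0.1 of a whole number; these cover the listed transcripts only. Because eXpress divides shared reads between isoforms by a model, values of transcripts of one gene are not independent of each other. Names came from GENCODE M21, which matched 10241 IDs and lacked 129. Transcripts were tested with limma 3.58.1 (R 4.3.3, eBayes with trend) on VSD, gene totals with voom, usage with diffSplice, all two-sided with Benjamini-Hochberg adjustment over the whole table at 0.1; the Camk2a to Camk2b ratio with an exact permutation test (Python 3, numpy), and relations with 100000 permutations. The limma, voom and usage fits were tried on simulated counts drawn independently for each transcript. Counts shared between isoforms and the permutation tests were not simulated. All CaMKII members were named, with the 2 smallest p-values of each list and the 3 most alike genes per total. Some items these rules name are not reported here. The members and lists were chosen with earlier results of these data known. Alternatives covered scale, scaling, filters, covariates, replicate block and left-out libraries.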

Additional observations from a re-analysis of the deposited data

Results flagged for a closer look

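Values were compared within each group of 7 or 8 libraries for the 9 transcripts, 3 gene totals and the Camk2a to Camk2b ratio, 26 comparisons in all, and 3 libraries stood apart from the rest of their group by Dixon's criterion. Chance marks about 1 group in 20. Camk2b-209 was at 3985 normalized counts in Sham replicate 1, a gap of 0.611 of the group's range (critical value 0.568). Camk2b-210 was at 2328 in HF-HI replicate 2, with a gap of 0.535 (critical value 0.526). Camk2g-202 was at 1303 in HF-HI replicate 6, with a gap of 0.632 (critical value 0.526).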

How the results depend on the processing

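The Camk2a difference kept its direction and an unadjusted p under 0.05 in all 30 alternatives as a transcript and all 26 as a gene total. With the size factor as a covariate, the CaMKII transcripts with an unadjusted p under 0.05 numbered 1 instead of 4, Camk2b-209 and Camk2b-210 usage was -0.63 and 0.70 with 0 of them past an adjusted p of 0.1, and the calls over all transcripts went from 916 to 533 and from 94 to 17 in the usage test. In the libraries of similar depth, chosen after seeing the data, those transcripts numbered 1, usage was -0.36 and 0.40 with 0 calls (42 over all transcripts), Camk2g-202 had a difference of 0.061 and a usage of 0.15, and the Camk2a to Camk2b ratio difference was 0.13 (exact permutation p = 0.0357). With log2 of counts plus 1, usage was -0.74 and 0.95 with 0 calls (55 over all), and above a mean of 300 it was -1.08 and 1.08 with 0 calls (30 over all, and 525 transcript calls). Leaving out both Sham replicate 1 and HF-HI replicate 2, chosen after seeing the data, gave 2 transcript calls, 0 usage calls, and usage of -0.44, 0.46 and, for Camk2b-212, 0.035. With the most abundant transcript of each gene, Camk2a-203 over Camk2b-209, the ratio difference was 0.38 (exact permutation p = 0.000311). That setting leaves out Camk2b-210, so it carries the division among Camk2b transcripts and is not a balance of gene totals. With the size factor removed the Camk2a and Camk2g totals had r = 0.037. The cause of these shifts was not tested.

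Leaving out each library in turn gave Camk2b-209 usage of -1.04 to -0.55 and Camk2b-210 usage of 0.60 to 1.19, with 0 to 2 usage calls; both were lost without HF-HI replicate 2 or 4, and Camk2b-209 likewise when any of Sham replicates 3 and 4 and HF-HI replicates 6 and 7 was the one dropped. The Camk2d total spanned -0.26 to -0.12 and had an unadjusted p under 0.05 without Sham replicate 5 (-0.26) or HF-HI replicate 1 (-0.24). The ratio difference spanned 0.079 to 0.15. The relations called numbered 1 (without HF-HI replicate 6) to 3 (without Sham replicate 4, when Camk2a with Camk2b was called at r = -0.73). Uncalled values that changed sign were the differences of Camk2d-206 (-0.043 to 0.0017), Camk2g-202 (-0.080 to 0.023) and Camk2g-203 (-0.070 to 0.023), Camk2g-203 usage (-0.28 to 0.068), and r of Camk2b-212 with Camk2b-209 (-0.42 to 0.17) and with Camk2b-210 (-0.37 to 0.39), of Camk2g-203 with Camk2g-201 (-0.69 to 0.0081) and with Camk2g-202 (-0.53 to 0.14), and of the Camk2a total with those of Camk2d (-0.14 to 0.38) and Camk2g (-0.26 to 0.40).

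Sham and HF-HI samples share replicate numbers, but same-numbered samples did not deviate together: the 7 correlations of their deviations ran from -0.138 to 0.0905, 0 of 7 were over 0.1, and 1 of 7 was highest with its own number. With the replicate block the Camk2d total difference was -0.19 with an unadjusted p under 0.05, the CaMKII transcripts called numbered 3 instead of 4, usage calls were 2, and the ratio difference was 0.10 (exact sign permutation p = 0.109). Depth limits the low transcripts: in the shallowest library, of 3496103 counts, a Camk2d-202 level under 5.99 normalized counts could not have been told from 0.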
